A study of Homo sapiens with 12 samples.

Results

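The DNA replication machinery was followed as 49 genes, chosen by gene name from the 62757 genes of the count table, of which 13896 had enough counts to be tested. Of the 49, 48 were tested, and RNASEH2A fell below the filter on low counts. The cells were ARPE-19, a human retinal pigment epithelium line that was grown to confluence and, in all groups, exposed to 3 µM of the synthetic retinoid fenretinide over 120 h to induce trans-differentiation. Cells were then transduced with an adeno-associated virus of serotype 9: AAV9-AIPL1co carried a codon-optimized copy of AIPL1, a photoreceptor co-chaperone gene, AAV9-AIPL1wt carried its wild-type sequence, and AAV9-GFP carried green fluorescent protein. The fourth group was the non-transduced control. Poly(A) RNA was sequenced from 3 biological replicates of each of the 4 groups, and the study asked how the vectors and the level of the AIPL1 transgene alter the expression profile.

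Before a cell copies its genome, the origin recognition complex (ORC), CDC6 and CDT1 load rings of the MCM2 to MCM7 helicase onto DNA, a step called licensing, which geminin (GMNN) restrains. CDC7 kinase with its partner DBF4, together with MCM10, CDC45 and the GINS complex, turns the loaded ring into a moving helicase. Polymerase alpha-primase then lays primers, polymerases delta and epsilon extend them while held by the sliding clamp PCNA, which replication factor C (RFC) loads, RPA covers single strands, and FEN1 and LIG1 finish the lagging strand. Many of these genes are transcribed under E2F factors as cells enter S phase, and their transcripts are low in resting cells. The comparisons below are given in the order of these steps.

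Gene counts were 6322811 (AAV9-AIPL1wt replicate 1) to 9075660 per library. The 49 genes took a small part of them, and values below are either this share, or normalized counts (counts scaled to a common library size), or log2 fold changes with their standard error (SE) from edgeR's quasi-likelihood test, whose p-values were adjusted over all 13896 genes. A gene is called lower or higher at an adjusted p under 0.05. The labels were checked on the vector sequences. The codon-optimized entry had 11, 13 and 19 counts in the AAV9-AIPL1co libraries and 0 in all others. A GFP entry had 2, 1 and 4 in the AAV9-GFP libraries and 0 in all others, and another GFP entry had 0 in every library. The wild-type entry also had 0 in every library and the AIPL1 gene at most 1. The AAV9-AIPL1wt label was therefore not checked by its transgene. Of 12 pigment epithelium markers only 4, MITF, OTX2, KRT8 and KRT18, had at least 10 counts in every library. RPE65, TYR, TYRP1, PMEL and TTR had at most 10 in all, and RLBP1, BEST1 and SERPINF1 lay between. Most photoreceptor and neuron markers were also scarce, with 6 of 8 and 5 of 8 at most 10. The neuron marker TUBB3 was at 13.4 to 75.1 normalized counts. MAP2, another neuron marker, was at 247 to 1305, with the highest value in control replicate 1.

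Control replicate 1 stood apart in these genes. The study left it out of its tests, and so did the fits here unless stated, which leaves n = 2 for the control. In this library, 38 of the 49 genes were more than 2-fold below the mean of control replicates 2 and 3 and 0 were more than 2-fold above it, with a median log2 ratio of -1.45, whereas over all genes tested 7.52% were below by that much and the median was 0.0035. All 6 MCM2 to MCM7 genes were among the 38, with a median log2 ratio of -2.17. Its levels were below the AAV9-AIPL1wt mean for 24 of the 49 genes. It was also the only control library of the first of 2 dates carried by the file labels, whereas both other controls had the second date and each vector had libraries of both. Counts of the 48 tested genes against the control are therefore given with and without this library. Its level stands beside those of each gene whose values are listed by library. For the other replication genes described near the end, values against the control leave it out. The comparisons between vectors, which use no control level, come first.

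The replication genes were lowest in the AAV9-AIPL1wt libraries among the vectors. Their share of all gene counts was 0.0843, 0.0816 and 0.107% in the AAV9-AIPL1wt libraries. It was 0.182, 0.180 and 0.210% for AAV9-AIPL1co and 0.255, 0.217 and 0.272% for AAV9-GFP. The 3 vector groups did not overlap in this share, with means of 0.0910 ± 0.0140%, 0.191 ± 0.0165% and 0.248 ± 0.0279% (SD, n = 3). Control replicates 2 and 3, at 0.211 and 0.248%, overlapped the AAV9-GFP range, and the lower of them was just above the highest AAV9-AIPL1co library. Control replicate 1, at 0.0909%, lay inside the AAV9-AIPL1wt range. In bulk RNA, fewer cells in S phase and less of each transcript per cell cannot be told apart.

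**Figure D1:**
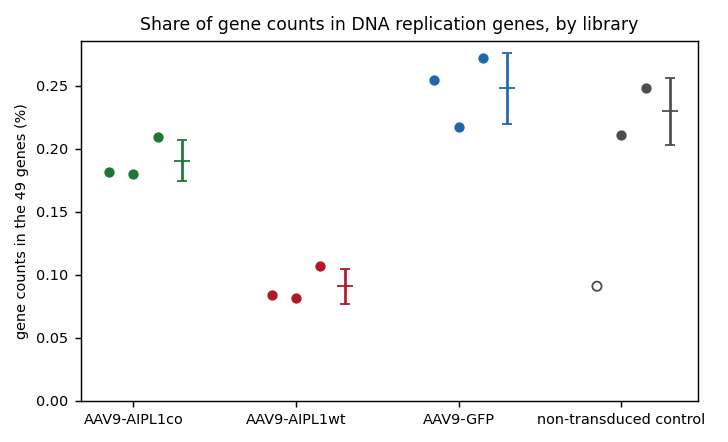
Percent of each library's gene counts that fell in the 49 replication genes (y axis), by group (x axis). Points are libraries, the bar beside them is the mean ± SD of the libraries used in the tests, and the open circle is control replicate 1, which is not in that mean. The AAV9-AIPL1wt libraries lie between 0.0816 and 0.107%, below every other library except control replicate 1 at 0.0909%.

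Of the 48 genes tested, 46 were lower and 1 was higher with AAV9-AIPL1wt than with AAV9-GFP, with a median log2 fold change of -1.51 over the 48, beside 25.5% of all genes called lower, 25.6% called higher and a median of 0.02. The largest falls were in CDC45 at -4.04 ± 0.28, PRIM1 at -3.21 ± 0.32, GINS4 at -3.11 ± 0.25 and MCM10 at -3.08 ± 0.26. ORC4 was the gene that rose, by 0.48 ± 0.13 (adjusted p = 0.0047), and RFC1, named here after its value was seen, was not called at -0.12 ± 0.14 (adjusted p = 0.5). Without each of the 11 libraries 42 to 46 were lower, and the second date alone gave 42. With control replicate 1 added to the fit 42 were lower.

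The vector with the codon-optimized transgene gave a smaller fall. With AAV9-AIPL1co 24 of 48 were lower than with AAV9-GFP and 1, GINS3, was higher, with a median of -0.39, beside 14.8% of all genes called lower and 16.1% called higher. This count was less steady: it was 14 without AAV9-GFP replicate 3 and 3 when control replicate 1 was added to the fit, while the median moved little, to -0.34 and -0.40.

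AAV9-AIPL1wt against AAV9-AIPL1co, the direct comparison of both AIPL1 vectors, gave 41 of 48 lower and 1 higher (ORC4). The median was -1.19, with single genes from -2.63 (CDC45) to 0.38 (ORC4). Over all genes, 22.3% were called lower and 19.3% higher. For 43 of the 48, every AAV9-AIPL1wt library was below every AAV9-AIPL1co library, against 25.7% of all genes. At the threshold of the study, an adjusted p under 0.005 and at least 3-fold, 8 of the 48 were lower, beside 2.04% of all genes. The 6 genes that were not called were ORC2, ORC5, DBF4, PRIM2, RFC1 and DNA2, at -0.17, -0.35, -0.37, -0.44, -0.01 and 0.17 on the log2 scale. Leaving out single libraries gave 39 to 42 lower, and with control replicate 1 in the fit 34 were lower.

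**Figure D2:**
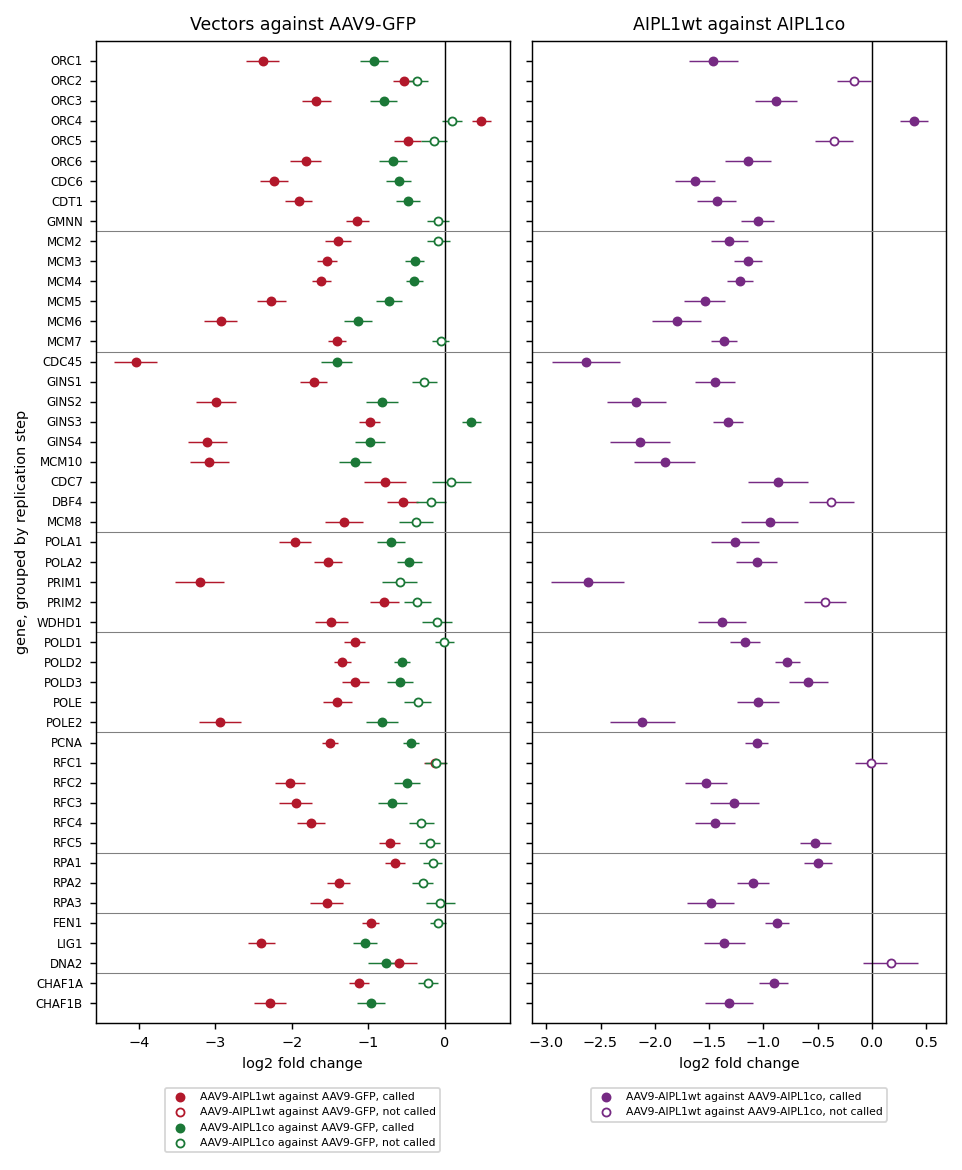
Log2 fold changes (x axis) of the 48 tested genes (y axis, grouped by step from origin licensing at the top to chromatin assembly at the bottom). The left panel shows AAV9-AIPL1wt in red and AAV9-AIPL1co in green against AAV9-GFP, and the right panel AAV9-AIPL1wt against AAV9-AIPL1co. Bars are ± 1 SE from edgeR, and filled points have an adjusted p under 0.05. In the left panel 46 red points are filled below 0 against 24 green ones, and ORC4 is the red point above 0.

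Against control replicates 2 and 3, 47 of 48 were lower with AAV9-AIPL1wt and 0 higher, with a median of -1.44, beside 30.0% of all genes called lower and 26.4% called higher. The 47 also lay below both controls in all 3 libraries, against 36.3% of all genes, and 22 of 48 passed the threshold of the study, against 4.86%. With GC offsets 40 of the 47 calls were kept. When control replicate 1 was added 33 were lower and the median was -1.02. Within the second date, whose controls are replicates 2 and 3, 44 were lower. Within the first date, whose only control is replicate 1, 8 were lower and 14 higher, so that the direction against the control rests on which control library is used. With 1 control library, that fit assumes that it varies as the other groups do.

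AAV9-AIPL1co against the same 2 controls gave 19 of 48 lower and 2 higher, GINS3 and POLD1, with a median of -0.35, beside 24.5% of all genes called lower and 22.4% called higher. With GC offsets 12 of these calls were kept and 9 were lost. At the threshold of the study 0 of 48 were lower, against 1.42% of all genes. The 19 became 5 without control replicate 3, 12 without AAV9-AIPL1co replicate 1 and 4 with control replicate 1 added, and on the first date, against control replicate 1 alone, 3 were lower and 37 higher. AAV9-GFP against control replicates 2 and 3 gave 0 lower and 1 higher (POLD1), with a median of 0.16, beside 6.66% of all genes called lower and 2.30% called higher. These shares of all genes were 0.309% and 0.209% with GC offsets and 0% without control replicate 3. At an unadjusted p under 0.05 in edgeR, 4 were lower and 7 higher. At an adjusted p under 0.05, DESeq2 gave 0 lower and limma voom 1 lower. The call of POLD1 was lost without AAV9-GFP replicate 1 or 2 and without control replicate 2 or 3. Against control replicate 1 alone, 2 were lower for AAV9-GFP and 41 higher.

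**Figure D3:**
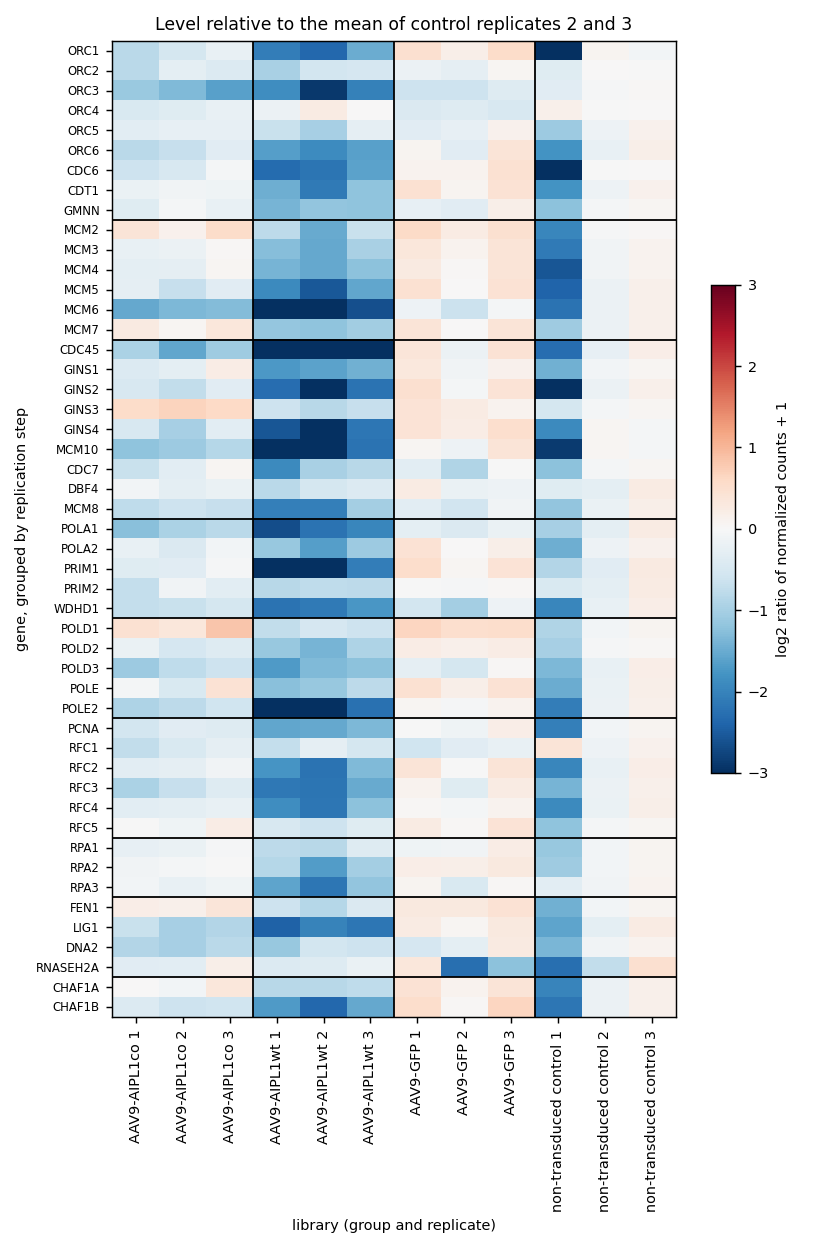
Level of each of the 49 genes (rows, grouped by step, black lines between steps) in each of the 12 libraries (columns), as the log2 ratio of its normalized count + 1 to the mean of control replicates 2 and 3 + 1. Blue is lower and red higher, and values beyond 3 are drawn at the end of the scale. The AAV9-AIPL1wt columns and control replicate 1 are blue for most genes, with ORC4 among the exceptions in both and RFC1 red in control replicate 1 but not in the AAV9-AIPL1wt columns.

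The promoters of these genes were read for motifs known from cell cycle control, since most members fell together. RefSeq promoter windows of GRCh38.p14, 250 bases before to 50 after the start, matched 42 of the 49 genes by symbol, in 52 windows, and DNA2, GINS4, MCM4, MCM5, POLD3, RPA2 and RPA3 had none. The E2F words searched were TTTCCCGC, TTTCGCGC, TTTGCCGC and TTTGGCGC, on both strands. They were in 20 of the 52 windows (38.5%), beside 4.87% of 15352 windows of the genes tested and 3.31% of all 35116 windows. The CCAAT box was in 53.8%, beside 34.4% of the windows of genes tested. The cell cycle genes homology region (CHR), searched as TTTGAA and TTCGAA, was in 3.85%, beside 11.9%, and in 68.1% of 47 windows of mitosis genes. A match is a run of letters and not a binding site, and no factor was measured here.

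The following runs show the bases just before the start, 5′ to 3′ on the strand of the gene, with E2F words in capitals, for 1 called gene of each of 5 steps and for ORC4, which did not fall. The 5 genes were picked because they hold a word, so the contrast with ORC4 comes from the choice. In the polymerase alpha-primase step, WDHD1, PRIM1 and PRIM2 were called lower too and hold none. In MCM6 each run of capitals is a pair of overlapping words, 1 on each strand. PCNA and ORC4 each have a second RefSeq start, whose window holds no E2F word.
CDT1, chr16:88803689-88803788, plus strand: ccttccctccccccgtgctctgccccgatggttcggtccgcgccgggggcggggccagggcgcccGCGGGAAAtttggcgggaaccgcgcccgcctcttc
MCM6, chr2:135876444-135876603, minus strand: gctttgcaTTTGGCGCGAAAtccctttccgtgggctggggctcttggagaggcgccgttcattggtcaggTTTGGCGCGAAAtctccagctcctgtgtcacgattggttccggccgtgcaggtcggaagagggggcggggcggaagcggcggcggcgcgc
GINS2, chr16:85688955-85689054, minus strand: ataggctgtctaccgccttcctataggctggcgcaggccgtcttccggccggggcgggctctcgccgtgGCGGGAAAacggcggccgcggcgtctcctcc
POLA2, chr11:65261862-65261961, plus strand: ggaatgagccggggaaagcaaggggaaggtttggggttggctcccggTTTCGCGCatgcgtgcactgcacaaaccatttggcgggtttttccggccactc
PCNA, chr20:5126623-5126722, minus strand: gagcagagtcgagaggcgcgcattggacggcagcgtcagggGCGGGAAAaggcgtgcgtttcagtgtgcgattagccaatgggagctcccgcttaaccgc
ORC4, chr2:148021552-148021651, minus strand: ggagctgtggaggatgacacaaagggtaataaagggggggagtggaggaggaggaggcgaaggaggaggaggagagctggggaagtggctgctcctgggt

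MCM6, with 4 words, fell by 7.61-fold with AAV9-AIPL1wt against AAV9-GFP. GINS2, CDT1, POLA2 and PCNA, with 1 each, fell by 7.94, 3.76, 2.88 and 2.83-fold. In that comparison the 20 tested genes with a word had a median log2 fold change of -1.61, from -2.99 to -0.78, and the 21 without a word in any window had a median of -1.18, from -4.04 to 0.48. Between the AIPL1 vectors the medians were -1.29 with a word and -0.91 without. Against the control they were -1.59 and -0.81, and -1.17 and -0.62 with control replicate 1 added. The ranges of the genes with and without a word overlapped in every comparison, and the difference was not tested. CDC45, with the deepest fall, was among those without these letters.

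In origin licensing, 8 of 9 genes were lower with AAV9-AIPL1wt than with AAV9-GFP and 1 higher, with a median of -1.68, and 5 were lower with AAV9-AIPL1co. CDT1, which brings the helicase to the origin and had the highest level per kilobase of this step (96.9 normalized counts per kilobase of exon over the libraries), was at 268, 287 and 283 with AAV9-AIPL1co, 112, 69.9 and 133 with AAV9-AIPL1wt, 424, 329 and 418 with AAV9-GFP, and 281 and 338 in control replicates 2 and 3, with 88.5 in control replicate 1. All 3 AAV9-AIPL1wt libraries lay below every AAV9-AIPL1co library, and the difference between both AIPL1 vectors was -1.43 ± 0.18 (adjusted p = 7.5e-06). CDC6, the ATPase that acts with ORC, was at 279, 306 and 408 with AAV9-AIPL1co, 85.3, 93.3 and 140.2 with AAV9-AIPL1wt, 457, 458 and 591 with AAV9-GFP, and 421 and 434 in control replicates 2 and 3, with 46.8 in control replicate 1. Its groups were ordered in the same way without overlap, at -1.63 ± 0.18 (adjusted p = 2.1e-06) between the AIPL1 vectors, and control replicate 1 had the lowest value of the 12. ORC1, the largest ORC subunit, was at 68.0, 82.7 and 103 with AAV9-AIPL1co, 27.6, 22.4 and 42.1 with AAV9-AIPL1wt, 167, 136 and 175 with AAV9-GFP, and 125 and 113 in control replicates 2 and 3, with 10.9 in control replicate 1. It fell by -2.38 ± 0.21 with AAV9-AIPL1wt and by -0.92 ± 0.18 with AAV9-AIPL1co against AAV9-GFP. GMNN, which binds CDT1 and blocks a second round of licensing, was at 179, 222 and 197 with AAV9-AIPL1co, 86.6, 100.4 and 99.2 with AAV9-AIPL1wt, 193, 183 and 259 with AAV9-GFP, and 222 and 239 in control replicates 2 and 3, with 97.7 in control replicate 1. It was called only with AAV9-AIPL1wt, at -1.05 ± 0.15 (adjusted p = 3.7e-05) against AAV9-AIPL1co, and AAV9-AIPL1co and AAV9-GFP overlapped, with a difference of -0.09 ± 0.14.

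ORC4, another ORC subunit, went the other way. Its normalized counts were 166, 178 and 195 with AAV9-AIPL1co, 202, 268 and 229 with AAV9-AIPL1wt, 169, 174 and 162 with AAV9-GFP, and 226 and 229 in control replicates 2 and 3, with 253 in control replicate 1. With AAV9-AIPL1wt every library was above every library of both other vectors, at 0.48 ± 0.13 (adjusted p = 0.0047) against AAV9-GFP and 0.38 ± 0.13 (adjusted p = 0.022) against AAV9-AIPL1co, while against the control it was 0.04 ± 0.14 (adjusted p = 0.81). The call against AAV9-AIPL1co was lost without AAV9-AIPL1co replicate 1 (adjusted p = 0.068) or 2 (0.064) and without AAV9-AIPL1wt replicate 2 (0.092), and that against AAV9-GFP was kept in all 11 such fits. Control replicate 1 was not low for this gene. In the annotation, 6.59% of its exon bases lie on ACVR2A or MBD5, and reads on such shared bases were counted for neither gene.

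All 6 genes of the MCM2 to MCM7 ring were lower with AAV9-AIPL1wt against AAV9-GFP, against AAV9-AIPL1co and against control replicates 2 and 3. Their median was -1.34 between the AIPL1 vectors. With control replicate 1 as the lone control of the first date, MCM2, MCM3, MCM4, MCM5 and MCM7 were not lower. MCM3, which had the highest level per kilobase of the ring at 266, was at 946, 980.5 and 1133 with AAV9-AIPL1co, 454, 376 and 558 with AAV9-AIPL1wt, 1395, 1183 and 1436 with AAV9-GFP, and 1015 and 1183 in control replicates 2 and 3, with 253 in control replicate 1. Its fall between the AIPL1 vectors was -1.14 ± 0.13 (adjusted p = 2.7e-06). MCM7, next at 240.1 per kilobase, was at 1497, 1301 and 1576 with AAV9-AIPL1co, 556, 539 and 605 with AAV9-AIPL1wt, 1637, 1266 and 1629 with AAV9-GFP, and 1111 and 1381 in control replicates 2 and 3, with 591 in control replicate 1. AAV9-AIPL1co and AAV9-GFP overlapped here, at -0.05 ± 0.11, and AAV9-AIPL1wt lay below both, at -1.36 ± 0.12 (adjusted p = 1.4e-07) against AAV9-AIPL1co. MCM7 shares 8.49% of its exon bases with other genes, AP4M1 among them.

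MCM6 was the ring gene that also fell with AAV9-AIPL1co against the control. It was at 163, 184 and 193 with AAV9-AIPL1co, 45.9, 35.0 and 75.5 with AAV9-AIPL1wt, 427, 305 and 453 with AAV9-GFP, and 422 and 527 in control replicates 2 and 3, with 102 in control replicate 1. The 3 vectors did not overlap, and the falls were -1.80 ± 0.22 (adjusted p = 7.4e-06) between the AIPL1 vectors and -1.13 ± 0.18 (adjusted p = 1.4e-04) for AAV9-AIPL1co against AAV9-GFP. MCM5 was at 681, 507 and 644 with AAV9-AIPL1co, 217, 139 and 278 with AAV9-AIPL1wt, 1119, 818 and 1099 with AAV9-GFP, and 726 and 907 in control replicates 2 and 3, with 154 in control replicate 1. It kept the same order of vectors, at -1.54 ± 0.19 (adjusted p = 7.2e-06) between the AIPL1 vectors and -0.73 ± 0.17 (adjusted p = 0.004) for AAV9-AIPL1co against AAV9-GFP. MCM3 and MCM4 were also lower with AAV9-AIPL1co than with AAV9-GFP, at -0.39 and -0.40, and MCM2 and MCM7 were not called.

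The helicase activation group held 9 genes, among them MCM8, which is not named among the activators above. All 9 fell with AAV9-AIPL1wt against AAV9-GFP. AAV9-AIPL1co gave 4 lower and 1 higher, and 8 fell between the AIPL1 vectors. CDC45, which joins GINS and the ring into the active helicase, was at 72.7, 47.6 and 67.0 with AAV9-AIPL1co, 6.56, 10.8 and 11.9 with AAV9-AIPL1wt, 183, 125 and 191 with AAV9-GFP, and 119.6 and 164 in control replicates 2 and 3, with 28.4 in control replicate 1. The raw counts went down to 5 in an AAV9-AIPL1wt library, the vectors did not overlap, and the falls were -2.63 ± 0.31 (adjusted p = 4.3e-06) between the AIPL1 vectors and -1.41 ± 0.20 (adjusted p = 4.0e-05) for AAV9-AIPL1co against AAV9-GFP. GINS2, with the highest level per kilobase of this step at 38.3, was at 117, 98.0 and 128 with AAV9-AIPL1co, 32.8, 11.7 and 34.5 with AAV9-AIPL1wt, 230.5, 157 and 219 with AAV9-GFP, and 145 and 183 in control replicates 2 and 3, with 18.4 in control replicate 1. It fell by -2.17 ± 0.27 between the AIPL1 vectors and by -0.82 ± 0.21 with AAV9-AIPL1co against AAV9-GFP.

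GINS3, a subunit of the same complex as GINS2, was called in both directions. It was at 198, 213 and 202 with AAV9-AIPL1co, 86.6, 75.3 and 83.1 with AAV9-AIPL1wt, 178, 158 and 145 with AAV9-GFP, and 129 and 139 in control replicates 2 and 3, with 92.7 in control replicate 1. AAV9-AIPL1co lay above all other groups, at 0.60 ± 0.14 (adjusted p = 0.0019) against the control and 0.35 ± 0.12 (adjusted p = 0.041) against AAV9-GFP, and AAV9-AIPL1wt lay below them, at -0.72 ± 0.15 (adjusted p = 5.6e-04) and -0.98 ± 0.14 (adjusted p = 1.4e-05). The difference between the AIPL1 vectors was -1.33 ± 0.14 (adjusted p = 8.3e-07). The small rise against AAV9-GFP lost its call in 7 of the 11 fits that left out 1 library, each AAV9-AIPL1co replicate among them, at adjusted p = 0.066 to 0.17. GINS1, GINS2 and GINS4 were at -0.27, -0.82 and -0.97 with AAV9-AIPL1co against AAV9-GFP, of which GINS1 was not called. For GINS3 10.9% and for GINS4 23.4% of exon bases lie on other genes.

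**Figure D4:**
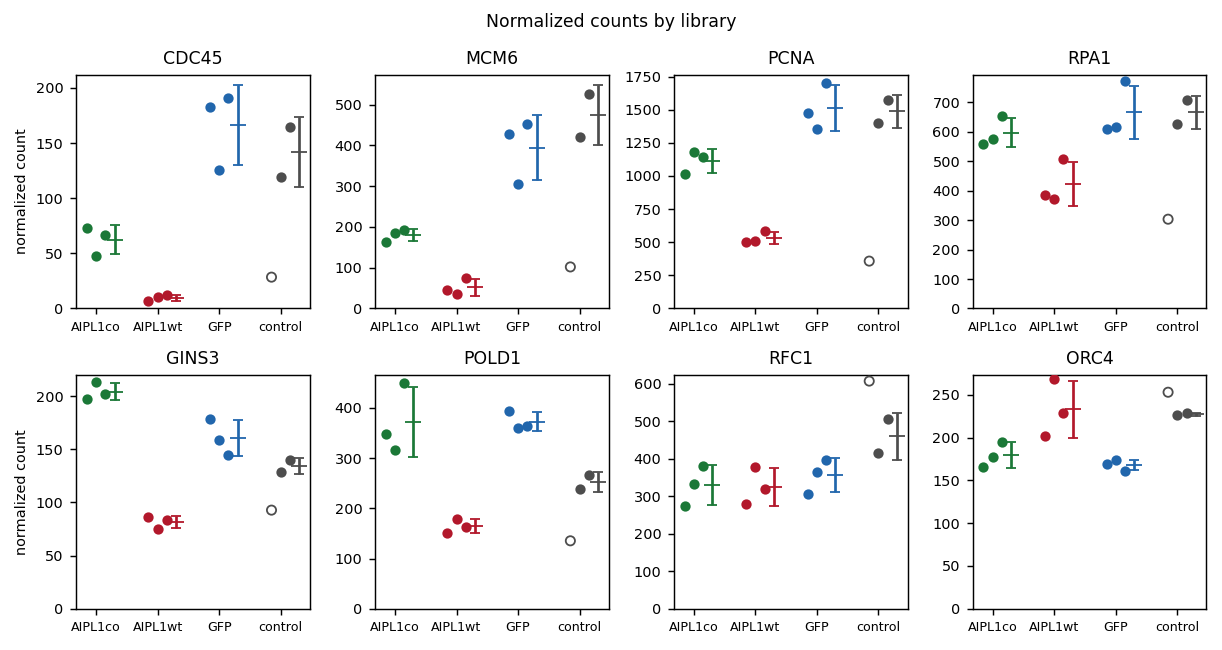
Normalized counts (y axis, from 0) of 8 genes in each library, by group (x axis). Points are libraries, the bar beside them is the mean ± SD of the libraries used in the tests, and open circles are control replicate 1. CDC45, MCM6, PCNA and RPA1 are lowest with AAV9-AIPL1wt among the vectors, GINS3 and POLD1 are higher with AAV9-AIPL1co than in the control libraries, RFC1 overlaps between vectors and ORC4 is highest with AAV9-AIPL1wt among the vectors.

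The 5 genes of polymerase alpha, its primase and the tethering factor WDHD1 were all lower with AAV9-AIPL1wt against AAV9-GFP, 2 of them with AAV9-AIPL1co, and 4 were lower between the AIPL1 vectors. WDHD1, which links the polymerase to the helicase, was at 117, 121 and 134 with AAV9-AIPL1co, 40.7, 43.9 and 57.2 with AAV9-AIPL1wt, 132, 93.9 and 174 with AAV9-GFP, and 164 and 222 in control replicates 2 and 3, with 49.3 in control replicate 1. The fall between the AIPL1 vectors was -1.38 ± 0.22 (adjusted p = 8.7e-05), and AAV9-AIPL1co and AAV9-GFP overlapped at -0.10 ± 0.19. PRIM1, the catalytic primase subunit, was at 41.0, 41.8 and 51.4 with AAV9-AIPL1co, 5.25, 4.48 and 11.9 with AAV9-AIPL1wt, 76.1, 55.0 and 70.3 with AAV9-GFP, and 41.4 and 64.4 in control replicates 2 and 3, with 28.4 in control replicate 1. All AAV9-AIPL1wt values were below those of the other vectors, at -2.62 ± 0.34 (adjusted p = 1.1e-05) against AAV9-AIPL1co, with raw counts down to 4. PRIM2, its partner subunit, moved less and was at 55.9, 84.6 and 73.7 with AAV9-AIPL1co, 51.2, 53.8 and 52.9 with AAV9-AIPL1wt, 91.6, 89.2 and 93.4 with AAV9-GFP, and 74.4 and 109 in control replicates 2 and 3, with 66.8 in control replicate 1. It was called against AAV9-GFP at -0.79 ± 0.19 (adjusted p = 0.002) but not between the AIPL1 vectors at -0.44 ± 0.20 (adjusted p = 0.082). Of the exon bases of PRIM1, 19.1% lie on other genes.

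All 5 genes of polymerases delta and epsilon were lower with AAV9-AIPL1wt against AAV9-GFP and against AAV9-AIPL1co. POLD2, a small subunit of delta, was at 1077, 867 and 936 with AAV9-AIPL1co, 560.3, 467 and 653 with AAV9-AIPL1wt, 1436, 1367 and 1446 with AAV9-GFP, and 1195 and 1271 in control replicates 2 and 3, with 622 in control replicate 1. The 3 vectors did not overlap, at -0.78 ± 0.11 (adjusted p = 3.4e-05) between the AIPL1 vectors and -0.56 ± 0.11 (adjusted p = 8.3e-04) for AAV9-AIPL1co against AAV9-GFP. POLE2, the second subunit of epsilon, was at 30.7, 34.2 and 39.1 with AAV9-AIPL1co, 6.56, 5.38 and 11.9 with AAV9-AIPL1wt, 61.7, 57.9 and 64.0 with AAV9-GFP, and 52.7 and 66.0 in control replicates 2 and 3, with 13.4 in control replicate 1. It showed the same order at lower counts, with -2.12 ± 0.30 (adjusted p = 2.6e-05) between the AIPL1 vectors.

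POLD1, the catalytic subunit of delta, was called in both directions. It was at 348, 317 and 450.1 with AAV9-AIPL1co, 151, 178 and 163 with AAV9-AIPL1wt, 394, 361 and 363 with AAV9-GFP, and 238 and 266 in control replicates 2 and 3, with 135 in control replicate 1. It was higher than the control with AAV9-AIPL1co, at 0.56 ± 0.15 (adjusted p = 0.0045), and with AAV9-GFP, at 0.56 ± 0.15 (adjusted p = 0.027), and these vectors differed by -0.01 ± 0.13. With AAV9-AIPL1wt it was lower than the control, at -0.61 ± 0.15 (adjusted p = 0.0021), and lower than AAV9-AIPL1co, at -1.17 ± 0.14 (adjusted p = 3.4e-06). Control replicate 1 was below every other library for this gene, and the fall with AAV9-AIPL1wt against the control was not called with that library added, at -0.33 (adjusted p = 0.21), or without control replicate 3, at -0.50 (0.051). The rise with AAV9-AIPL1co was not called with GC offsets, at 0.20 (0.30), or without control replicate 2, at 0.50 (0.057).

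Of the clamp and the 5 subunits of its loader, 5 of 6 were lower with AAV9-AIPL1wt against AAV9-GFP and between the AIPL1 vectors, and 3 were lower with AAV9-AIPL1co against AAV9-GFP. PCNA, the most abundant of the 49 per kilobase at 807 normalized counts, was at 1013, 1181 and 1145 with AAV9-AIPL1co, 503, 510.2 and 587 with AAV9-AIPL1wt, 1477, 1358 and 1699 with AAV9-GFP, and 1401 and 1575 in control replicates 2 and 3, with 358 in control replicate 1. The 3 vectors were apart, at -1.06 ± 0.11 (adjusted p = 7.1e-07) between the AIPL1 vectors and -0.44 ± 0.10 (adjusted p = 0.003) for AAV9-AIPL1co against AAV9-GFP, and control replicate 1 was the lowest of the 12. RFC2 was at 203, 212 and 238 with AAV9-AIPL1co, 73.5, 53.8 and 100.3 with AAV9-AIPL1wt, 334, 252 and 333 with AAV9-GFP, and 217 and 291 in control replicates 2 and 3, with 65.2 in control replicate 1. It fell by -1.53 ± 0.19 between the AIPL1 vectors. RFC4 was at 170.5, 175 and 183 with AAV9-AIPL1co, 57.7, 46.6 and 90.6 with AAV9-AIPL1wt, 218, 206 and 229.8 with AAV9-GFP, and 187 and 241 in control replicates 2 and 3, with 56.0 in control replicate 1. Its fall was -1.44 ± 0.19, and AAV9-AIPL1co against AAV9-GFP was not called at -0.31 ± 0.16 (adjusted p = 0.17). RFC1, the large subunit, was at 274, 333 and 382 with AAV9-AIPL1co, 278, 379 and 319 with AAV9-AIPL1wt, 307, 365 and 397 with AAV9-GFP, and 416 and 505 in control replicates 2 and 3, with 607 in control replicate 1. The vectors overlapped, at -0.01 ± 0.15 (adjusted p = 0.97) between the AIPL1 vectors, and control replicate 1 was the highest of the 12 libraries.

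The 3 RPA genes were lower with AAV9-AIPL1wt against AAV9-GFP and against AAV9-AIPL1co, and 0 of them were called with AAV9-AIPL1co against AAV9-GFP or the control by edgeR, 0 also at an unadjusted p under 0.05. RPA1, the large subunit, was at 559.9, 576 and 652 with AAV9-AIPL1co, 387, 372 and 509 with AAV9-AIPL1wt, 609, 617 and 771 with AAV9-GFP, and 625 and 706 in control replicates 2 and 3, with 303 in control replicate 1. Its fall was among the smaller ones, at -0.49 ± 0.13 (adjusted p = 0.005) between the AIPL1 vectors. RPA2 was at 411, 420.3 and 437 with AAV9-AIPL1co, 244, 138 and 217 with AAV9-AIPL1wt, 509, 494 and 544 with AAV9-GFP, and 417 and 465 in control replicates 2 and 3, with 211 in control replicate 1. The same comparison gave -1.10 ± 0.15 (adjusted p = 1.8e-05). RPA3, the small subunit, was at 106, 95.1 and 102 with AAV9-AIPL1co, 36.7, 24.2 and 48.5 with AAV9-AIPL1wt, 119, 81.6 and 115 with AAV9-GFP, and 104 and 120.5 in control replicates 2 and 3, with 90.2 in control replicate 1. It was -1.49 ± 0.22 (adjusted p = 4.1e-05) between the AIPL1 vectors, while AAV9-AIPL1co and AAV9-GFP overlapped at -0.06 ± 0.19.

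In flap processing and ligation, FEN1, LIG1 and DNA2 were lower with AAV9-AIPL1wt against AAV9-GFP, and LIG1 and DNA2 with AAV9-AIPL1co. FEN1, the flap nuclease, was second to PCNA per kilobase at 337 and was at 834, 810.3 and 925 with AAV9-AIPL1co, 472, 397 and 534 with AAV9-AIPL1wt, 882, 882 and 974 with AAV9-GFP, and 680.0 and 767 in control replicates 2 and 3, with 264 in control replicate 1. It fell between the AIPL1 vectors at -0.87 ± 0.11 (adjusted p = 8.5e-06), and AAV9-AIPL1co against AAV9-GFP was -0.09 ± 0.11. LIG1, the ligase that seals the finished pieces, was at 128, 102 and 109 with AAV9-AIPL1co, 36.7, 49.3 and 44.2 with AAV9-AIPL1wt, 239, 209.7 and 249 with AAV9-GFP, and 164 and 241 in control replicates 2 and 3, with 66.8 in control replicate 1. The vectors did not overlap, at -1.36 ± 0.19 (adjusted p = 2.4e-05) between the AIPL1 vectors and -1.04 ± 0.16 (adjusted p = 7.7e-05) for AAV9-AIPL1co against AAV9-GFP. RNASEH2A, the catalytic subunit of the nuclease that removes ribonucleotides, had 0 to 7 raw counts per library and was not tested. In the annotation 53.3% of its exon bases lie on THSD8, and reads on both genes were not counted, so its level is uncertain.

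Both large subunits of chromatin assembly factor 1, which places histones behind the fork, were lower with AAV9-AIPL1wt. CHAF1A was at 409, 380.4 and 513 with AAV9-AIPL1co, 228, 227 and 238 with AAV9-AIPL1wt, 543, 437 and 533 with AAV9-GFP, and 357 and 451 in control replicates 2 and 3, with 102 in control replicate 1. Its fall between the AIPL1 vectors was -0.91 ± 0.13 (adjusted p = 4.2e-05), and AAV9-AIPL1co against AAV9-GFP was not called at -0.22 ± 0.13 (adjusted p = 0.21). CHAF1B was at 116, 99.9 and 102 with AAV9-AIPL1co, 47.2, 29.6 and 52.9 with AAV9-AIPL1wt, 224, 158 and 241 with AAV9-GFP, and 137 and 172 in control replicates 2 and 3, with 33.4 in control replicate 1. All 3 vectors were apart, at -1.32 ± 0.22 (adjusted p = 1.4e-04) between the AIPL1 vectors and -0.97 ± 0.18 (adjusted p = 5.7e-04) for AAV9-AIPL1co against AAV9-GFP.

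A list of 42 other replication genes was measured beside the 49. With AAV9-AIPL1wt 25 were lower and 3 higher against AAV9-GFP, with a median of -0.53, beside 25.5% and 25.6% of all genes. Against AAV9-AIPL1co 18 were lower and 1 higher, with a median of -0.28, beside 22.3% and 19.3%. Against the control 28 were lower and 5 higher, with a median of -0.77, beside 30.0% and 26.4%. All control values in this paragraph come from the fit without control replicate 1. The largest falls against the control were in ESCO2, a cohesin acetyltransferase, at -4.20 ± 0.38, CLSPN, a checkpoint adaptor at the fork, at -3.28 ± 0.24, ASF1B, a histone chaperone, at -3.05 ± 0.25, and DTL, which directs CDT1 to degradation, at -2.97 ± 0.23. The 5 genes that rose were POLE4, a small subunit of polymerase epsilon, at 0.63 ± 0.13, RNASEH2C at 0.54 ± 0.13, LRWD1, an ORC-binding protein, at 0.64 ± 0.15, CIZ1 at 0.62 ± 0.11 and POLDIP2, which binds polymerase delta, at 0.40 ± 0.10. The same 5 were the ones higher with AAV9-AIPL1co against the control, at 0.50, 0.64, 0.67, 0.64 and 0.32, a comparison that shares its control libraries. In that comparison 22 of the 42 were lower, beside 24.5% of all genes called lower and 22.4% called higher. CIZ1 and DNMT1, the maintenance methyltransferase, were higher with AAV9-GFP against the control, at 0.40 and 0.38. There 3 of the 42 were lower, beside 6.66% of all genes called lower and 2.30% called higher. MCM9, a relative of the ring genes that is not part of it, was higher with AAV9-AIPL1wt than with AAV9-GFP at 0.63 ± 0.19 (adjusted p = 0.0089) and than with AAV9-AIPL1co at 0.90 ± 0.19 (adjusted p = 0.0011).

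Of 43 mitosis genes tested, 10 were lower and 1 higher between the AIPL1 vectors, with a median of -0.17. Over all genes 22.3% were called lower and 19.3% higher, so the count of lower mitosis genes was near that share. Of the 48 replication genes 41 were lower, with a median of -1.19. Against AAV9-GFP, 28 of the 43 were lower with AAV9-AIPL1co and 31 with AAV9-AIPL1wt, with medians of -0.68 and -1.01. Of the 48 replication genes 24 and 46 were lower, with medians of -0.39 and -1.51. Over all genes 14.8% and 25.5% were called lower in these comparisons. In control replicate 1, 14 of the 43 were more than 2-fold below the other controls and 0 above, beside 7.52% of all genes below by that much.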

How the data were processed

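RNA sequencing of 12 ARPE-19 libraries gave the count table used here. The authors deposited raw counts per gene, neither normalized nor pooled: 60-base reads from unstranded poly(A) libraries were aligned with STAR 2.7.10b to GRCh38 and Gencode 43 plus 4 vector sequences, and unique reads were counted by HTSeq 0.11.1, which drops reads on more than 1 gene. Without strand, a gene and its antisense partner cannot be told apart. Depth was 6322811 to 9075660 gene counts, lowest in AAV9-AIPL1wt replicate 1. In that library 24.5% of reads had several positions, beside 13.3 to 20.2% in the others. Reads outside genes, on several genes or with several positions stayed out of library sizes.

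In R 4.3.3, edgeR 4.0.16 (filterByExpr, TMM, quasi-likelihood test, group as the only term) was fitted to 11 libraries, without control replicate 1 as in the study, with Benjamini-Hochberg adjustment over 13896 genes. The study calls its replicates biological. SE was taken as the log2 change over the root of F. Normalized counts were brought to the geometric mean of the effective library sizes. Exon lengths and overlaps came from Gencode 44. The 49 genes and all lists were chosen with earlier results of these data known. Genes are named by this rule: in each step the 2 with the highest normalized count per kilobase, the 2 with the largest change between the AIPL1 vectors, those called against the main direction and those not called with AAV9-AIPL1wt against control. Of the other replication genes, those called against the main direction and the 4 with the largest change are named. Genes added after their values were seen are GINS4, MCM10, RFC1, GINS1, POLA2 (for its promoter), MCM2, MCM4 and the uncalled genes listed for the comparison of both AIPL1 vectors. Alternatives were all 12 libraries, date, replicate block, GC offsets, other scalings and filters, DESeq2 1.42.0, limma voom 3.58.1, fits of 2 groups, STAR counts, the threshold of the study and leaving out single libraries; single genes were followed where called. The edgeR steps were tested on simulated data.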

Additional observations from a re-analysis of the deposited data

Results flagged for a closer look

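GINS3 and POLD1 were called in opposite directions against the control with the AIPL1 vectors, and the difference between these vectors was tested directly. GINS3 was higher with AAV9-AIPL1co (0.60 ± 0.14 (adjusted p = 0.0019)) and lower with AAV9-AIPL1wt (-0.72 ± 0.15 (adjusted p = 5.6e-04)), a difference of -1.33 on the log2 scale (adjusted p = 8.3e-07, edgeR). POLD1 was higher with AAV9-AIPL1co (0.56 ± 0.15 (adjusted p = 0.0045)) and lower with AAV9-AIPL1wt (-0.61 ± 0.15 (adjusted p = 0.0021)), a difference of -1.17 (adjusted p = 3.4e-06). In control replicate 1 GINS3 was at 92.7 and POLD1 at 135 normalized counts, below the other control libraries for both. Against that library alone, on the first date, the AAV9-AIPL1wt values were -0.092 for GINS3 and 0.25 for POLD1. With all 12 libraries they were -0.52 and -0.33, and POLD1 was not called (adjusted p = 0.21, edgeR). The rise of POLD1 with AAV9-AIPL1co was not called with GC offsets, at 0.20 (adjusted p = 0.30, edgeR). The exon overlap with other genes is 10.9% for GINS3 and 8.63% for POLD1, and its part in the result was not tested.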

How the results depend on the processing

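The comparison of AAV9-AIPL1wt with AAV9-GFP moved little, and that with AAV9-AIPL1co moved more. Under every alternative run at the same threshold, 41 to 46 of 48 genes were lower with AAV9-AIPL1wt than with AAV9-GFP and 31 to 42 than with AAV9-AIPL1co. With the threshold of the study the counts of lower genes were 0, 22, 0, 0, 21 and 8 for AAV9-AIPL1co, AAV9-AIPL1wt and AAV9-GFP against control, AAV9-AIPL1co and AAV9-AIPL1wt against AAV9-GFP, and AAV9-AIPL1wt against AAV9-AIPL1co, and 0 genes were higher in any of these. Adding control replicate 1 gave 4 lower for AAV9-AIPL1co and 1 lower for AAV9-GFP against control, and 3 lower with 0 higher for AAV9-AIPL1co against AAV9-GFP. With a date term as well these were 2, 0, 3 and 0, and 29 were lower for AAV9-AIPL1wt against control. A date term alone left 0 higher with AAV9-GFP against control.

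With control replicate 1 as the lone control of the first date, AAV9-AIPL1co gave 3 lower and 37 higher, AAV9-AIPL1wt 8 and 14, and AAV9-GFP 2 and 41. Genes called lower in the tests above then had log2 fold changes above 0 as follows. With AAV9-AIPL1co against control these were ORC2 0.063, ORC6 1.34, MCM6 0.92, CDC45 1.03, GINS4 1.34, MCM10 1.98, MCM8 0.56, POLA1 0.15, WDHD1 1.40, POLD2 0.57, POLD3 0.70, POLE2 1.48, PCNA 1.74, RFC3 0.89, LIG1 0.69, DNA2 0.52 and CHAF1B 1.62. With AAV9-AIPL1wt against control these were ORC1 1.73, ORC5 0.69, ORC6 0.20, CDC6 1.33, CDT1 0.51, MCM2 1.28, MCM3 1.04, MCM4 1.31, MCM5 0.73, MCM7 0.014, GINS2 0.91, MCM10 0.16, CDC7 0.034, POLA2 0.41, WDHD1 0.046, POLD1 0.25, POLD2 0.0041, POLE 0.56, PCNA 0.65, RFC2 0.47, RFC4 0.47, RFC5 0.83, RPA1 0.61, RPA2 0.17, FEN1 0.97, DNA2 0.59, CHAF1A 1.23 and CHAF1B 0.63. With all 12 libraries PCNA was at 0.019 with AAV9-AIPL1co against control, and with a date term too PCNA was at 0.20 and CHAF1B at 0.023. The cause was not tested.

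The second date alone gave 4 higher with AAV9-AIPL1co and 5 lower and 3 higher with AAV9-GFP against control, 0 higher for AAV9-AIPL1co against AAV9-GFP and 2 higher between the AIPL1 vectors. GC offsets gave 1 higher with AAV9-AIPL1co, 1 higher with AAV9-AIPL1wt and 0 higher with AAV9-GFP against control. Same-numbered libraries correlated in their deviations at r = -0.063 to 0.236 in 15 pairs, with a median of 0.070 and 4 above 0.1. Pairs of the same date had a median of -0.022. The tests above took the libraries as unpaired, and these correlations do not decide whether replicate numbers pair them. A replicate block gave 21 lower and 3 higher, 47 and 0, 1 and 2, 27 and 1, 46 and 1, and 42 and 1 in the order of comparisons above, and the replicate block with GC offsets 17 and 1, 41 and 1, 0 and 0, 29 and 1, 45 and 1, and 41 and 1. Fits of only the 2 groups gave 5 higher with AAV9-AIPL1co and 4 lower and 6 higher with AAV9-GFP against control, and 0 higher between the AIPL1 vectors. No filter gave 1 lower and 2 higher, limma voom 1 lower and DESeq2 2 higher with AAV9-GFP against control, and upper quartile scaling, no filter and DESeq2 0 higher for AAV9-AIPL1co against AAV9-GFP. The first date without control libraries gave 0 higher in that comparison and between the AIPL1 vectors. Leaving out 1 library at a time gave, against control, 5 to 24 lower and 1 to 4 higher for AAV9-AIPL1co, 40 to 47 lower for AAV9-AIPL1wt, and 0 to 3 lower and 0 to 3 higher for AAV9-GFP, as well as 14 to 27 lower and 0 to 1 higher for AAV9-AIPL1co against AAV9-GFP, and 39 to 42 lower and 0 to 1 higher between the AIPL1 vectors. Of all genes called with AAV9-GFP against control, 926 were lower and 319 higher, but 739 and 462 with relative log expression scaling, 732 and 494 with upper quartile scaling, 822 and 677 with DESeq2, 337 and 87 with a date term, 1018 and 505 with all 12 libraries and date, 1829 and 2209 on the second date, 3365 and 3321 with control replicate 1 alone on the first, 43 and 29 with GC offsets, 45 and 33 with these and the replicate block, and 1992 and 1296 in fits of the 2 groups. They were 0 and 0 without control replicate 3, 106 and 16 without control replicate 2, 100 and 38 without AAV9-GFP replicate 1, 50 and 8 without AAV9-GFP replicate 2, 599 and 155 without AAV9-AIPL1co replicate 2, and 1183 and 773 or 1740 and 934 without AAV9-AIPL1wt replicate 1 or 2. Adding control replicate 1 moved all genes called for AAV9-AIPL1co against AAV9-GFP from 2061 and 2239 to 957 and 1205 (908 and 1191 with date), and between the AIPL1 vectors from 3095 and 2676 to 1986 and 1972 (1947 and 1891). The second date gave 1471 and 1323 for the former, and leaving out control replicate 3 took AAV9-AIPL1co against control from 3401 and 3107 to 2138 and 2069. STAR counts were identical to the HTSeq counts.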
